A study of Mus musculus with 8 samples.

Results

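The cells described here are Hoxb7-GFP-positive cells of the E8.75 mouse embryo, the youngest Hoxb7-GFP sort of the series. They are set against E9.5 intermediate mesoderm sorted by a Wt1-GFP reporter. Endothelial and yolk sac genes were also high in the E8.75 sort, as described below. The comparison takes 3 of the 8 arrays of the series, namely the 1 array of E8.75 Hoxb7-GFP cells and the 2 arrays of E9.5 Wt1-GFP cells, of which one came from the rostral and one from the caudal part of the embryo. All embryos were of the ICR strain, and each array was hybridised with amplified product from 10 ng of total RNA. The other 5 arrays held Hoxb7-GFP-positive, Flk1-negative duct precursors at E9.5 and E10.5 (rostral and caudal at each stage) and at E11.5, and they are used here to show what a duct gene did later. The reporter marks cells through a promoter of Hoxb7 or Wt1, so that each sort collects all cells in which that promoter is active, whatever their type. Flk1 (Kdr), a receptor of endothelial cells, was gated out according to the labels of the 5 later duct samples and to the general design of the study, whereas the labels of the E8.75 sample and of the Wt1-GFP samples do not mention that gate.

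The nephric duct arises from the intermediate mesoderm as a cord of cells that becomes epithelial while it grows caudally, and it later gives off the ureteric bud, from which the collecting ducts of the kidney form. Its early cells are known for the transcription factors Pax2, Pax8, Lhx1 and Gata3, which act upstream of Ret, the receptor for the growth factor GDNF. The neighbouring mesoderm marked by Wt1 gives rise to the nephron progenitors and, with the coelomic epithelium, to the gonad and mesothelia. The question was which duct genes already separated the E8.75 cells from this mesoderm and which did not yet.

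A level here is the log2 of a gene's processed array signal minus the log2 of the 75th percentile of that array, read from the brightest probe of the gene, so levels are compared between arrays for 1 gene and never between genes. On the E8.75 array 67.3% of probes were well above background. The E8.75 array correlated with the rostral and caudal Wt1-GFP arrays at r = 0.940 and r = 0.944 over all probes, and with the rostral and caudal E9.5 duct arrays at r = 0.940 and r = 0.945, so its profile lay no nearer to the E9.5 duct than to the E9.5 mesoderm by this measure. The comparison has 1 array on one side, and the arrays on the other side are different parts of the embryo and not repeats. Nothing in the labels says that arrays came from separate animals, so a p-value measures only the spread between these samples, which may be technical. In the main fit that spread is not one of repeats. It came from how far the rostral-to-caudal gap differed among the E9.5 duct, E10.5 duct and Wt1-GFP arrays. Groups with 1 array added none to it. In limma's test over 29544 genes, 0 genes differed at a Benjamini-Hochberg adjusted p of 0.05, the lowest adjusted p being 0.199, while 2050 genes (6.94%) were higher and 1868 (6.32%) lower at an unadjusted p of 0.05. The count depended on how the spread was estimated. When limma let the prior spread follow intensity, 46 genes were higher and 50 lower past the threshold, and with normexp background correction 107 and 35. With the slide row added as a block the number was 0 again, also together with the intensity trend. That row term rested on the E10.5 rostral and caudal arrays, the only group with arrays in both rows. It was the part of their gap left over by the position term, which the E9.5 duct and Wt1-GFP arrays then set. It thus also took up any way in which the rostral-to-caudal gap at E10.5 differed from that of those arrays. The results are therefore described by a rule of size. A gene is called set apart when the E8.75 array lay at least 2-fold above both Wt1-GFP arrays or at least 2-fold below both, with the brighter side well above background. By this rule 1496 of 29544 genes (5.06%) were set apart as higher and 1509 (5.11%) as lower. The Wt1-GFP arrays themselves differed by a median of 0.35 on the log2 scale, and 17.1% of genes were at least 2-fold apart between them. Reporter, embryonic day and slide row all differ between the 2 groups and cannot be told apart.

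**Figure D1:**
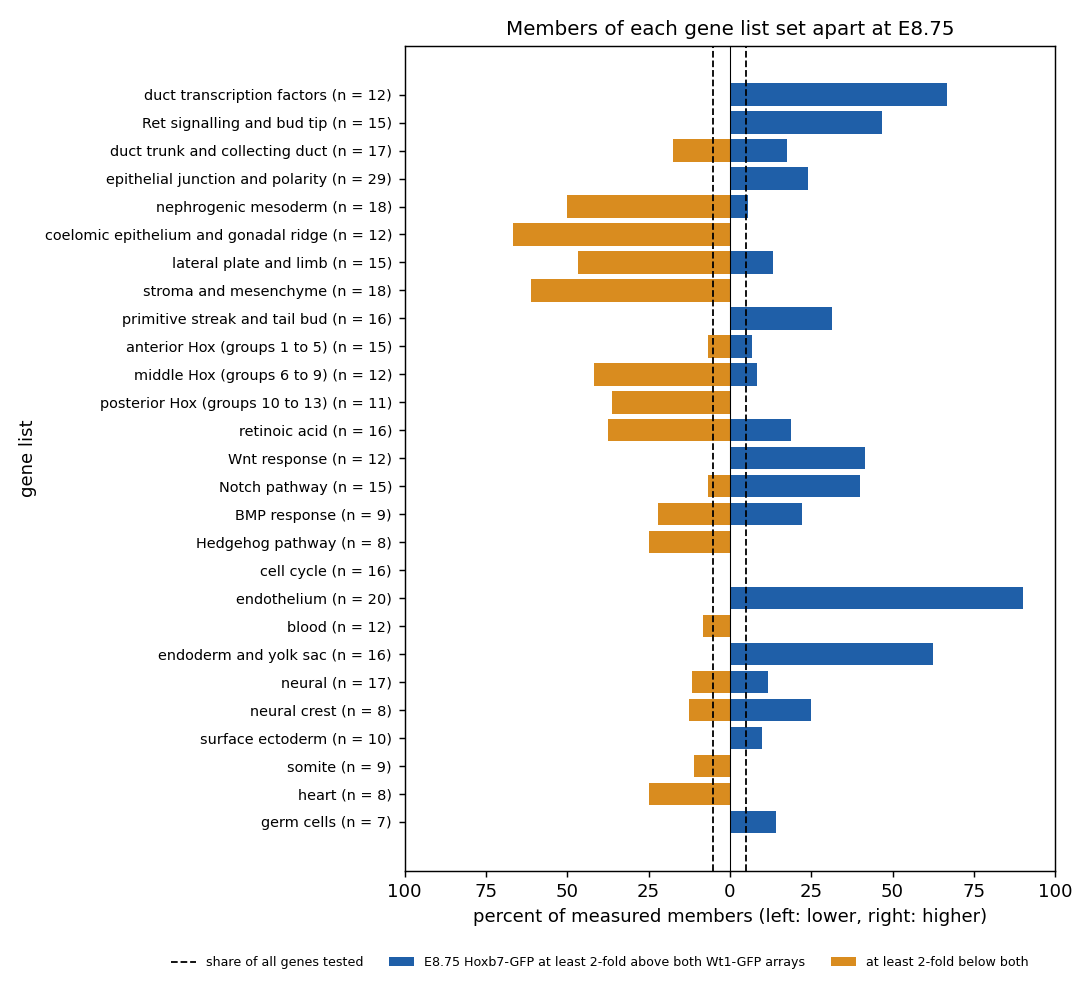
Percent of the measured members of each gene list (n in brackets) whose E8.75 level lay at least 2-fold above both Wt1-GFP arrays (bars to the right) or at least 2-fold below both (bars to the left). Dashed lines mark the share of all 29544 genes, 5.06% higher and 5.11% lower. The duct transcription factor, Ret, endothelium and endoderm bars extend to the right, and those of coelomic epithelium, stroma and nephrogenic mesoderm to the left.

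Most transcription factors of the duct were already bright in the E8.75 cells. Of 12 listed factors, 8 were set apart as higher, against 5.06% of all genes, and 0 as lower, and the median difference of the list was 3.13 on the log2 scale, against -0.03 over all genes. Pax2, the paired-box factor required for the duct, was at 5.69 at E8.75 and at 2.71 and 1.32 in rostral and caudal Wt1-GFP cells, a log2 difference of 3.67 (limma SE 0.57, adjusted p = 0.214). Lhx1, a LIM-homeodomain factor needed for duct extension, was at 4.51 against 0.49 and -0.07 (difference 4.30, SE 0.44, adjusted p = 0.2 in limma). For both genes the E8.75 level also exceeded that of all 5 later duct arrays, which reached 5.36 for Pax2 and 3.69 for Lhx1. Gata3, a zinc-finger factor of the duct lineage, was at 2.85 against -1 and 0.08, a level that the later duct kept within the range 1.69 to 3.04. Pax8, a paralogue of Pax2, gave the smallest gap of the 8, at 2.35 against 0.88 and 0.74.

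Several factors separated the cells more sharply because the mesoderm hardly showed them. Sim1, a basic helix-loop-helix factor, was at 1.46 at E8.75 and at -3.64 and -4.06 in Wt1-GFP cells, at least 39.6-fold higher. Tfap2a, which encodes the AP-2α factor, was at 1.6 and was well above background on 1 of the 2 Wt1-GFP arrays (-6.24 and -4.09), at least 49.4-fold higher. A bound of this kind sets each array on which the gene was not well above background at the higher of its own level and the dimmest level that was (-3.96 rostral, -4.28 caudal). Both genes were past the threshold in the fit with an intensity trend, Sim1 at an adjusted p of 0.035 and Tfap2a at 0.045, as was Lhx1 at 0.040. Mecom, which encodes the Evi1 zinc-finger factor, was at 1.99 against -1.33 and -3.40, but its other, dimmer probe did not set the cells apart. Emx2, a homeobox factor of the urogenital system, was at 1.17 against -0.41 and -3.15, and its Wt1-GFP arrays were further apart from each other than the E8.75 array was from the nearer of them.

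Other factors of the list did not separate the cells. Hoxb7, whose promoter drives the reporter of the sort, was at 1.64 at E8.75 and at 1.5 and 1.63 in Wt1-GFP cells (limma difference 0.08, SE 0.26, adjusted p = 0.92), and it lay between 2.30 and 3.28 on the later duct arrays. The E8.75 level of Hoxb7 thus lay beside both mesoderm levels and below every later duct array. Tfcp2l1, a grainyhead-related factor of the collecting duct, was at -3.76 and not well above background in Wt1-GFP cells, and it lay between 0.49 and 5.33 later. Tfap2b, which encodes AP-2β, was not well above background on any of the 3 arrays compared and lay between 3.21 and 4.75 on all 5 later ones. Tfcp2l1 and Tfap2b are 2 of the 930 genes (3.15%) for which every later duct array was well above background and at least 2-fold above the E8.75 array.

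**Figure D2:**
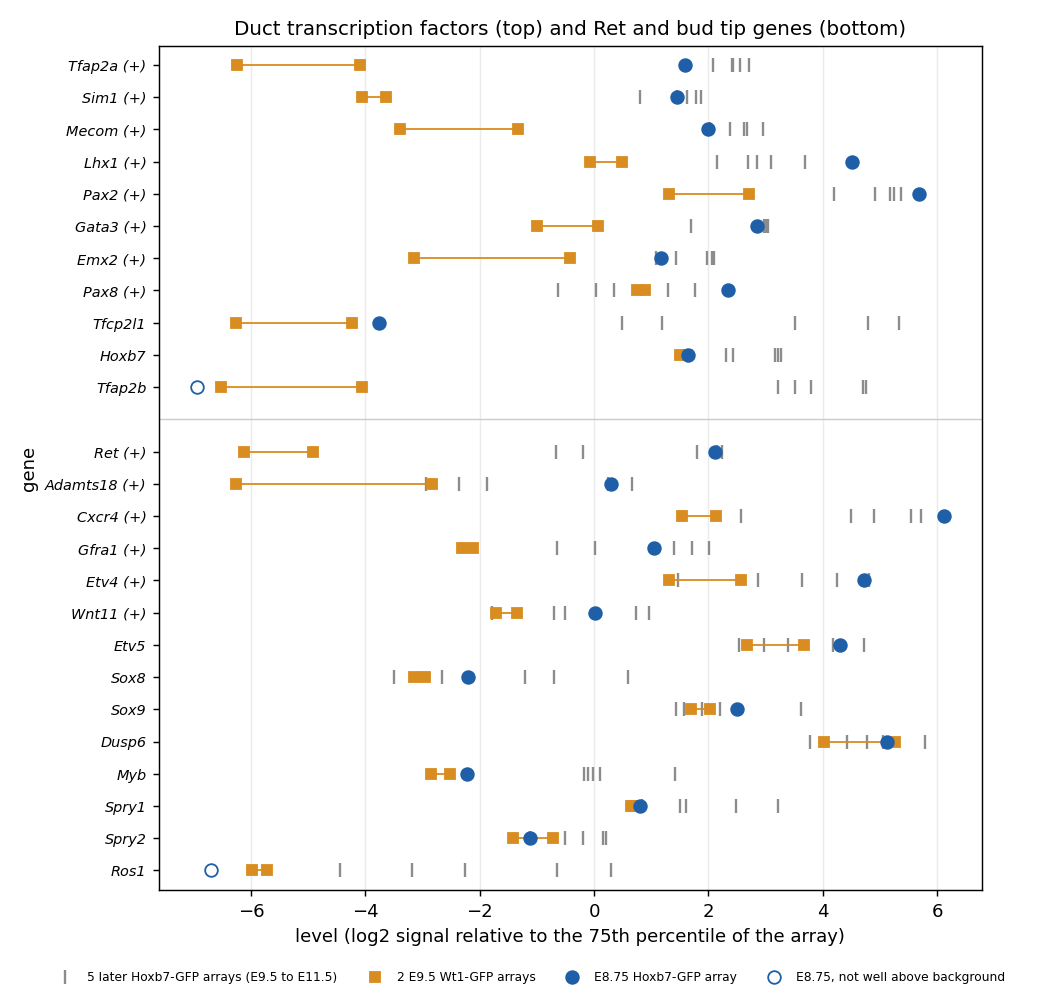
Levels of duct transcription factors (top) and of Ret signalling and bud tip genes (bottom) on the E8.75 Hoxb7-GFP array (circles, open where not well above background), the 2 Wt1-GFP arrays (squares, joined by a line) and the 5 later Hoxb7-GFP arrays (ticks), on the log2 scale of levels. A plus or minus after a name marks genes set apart as higher or lower. Circles of the upper genes lie to the right of the squares and among or near the ticks, while Tfcp2l1 and Tfap2b lie near the squares and left of the ticks.

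The genes for the GDNF receptor Ret and its co-receptor already had more signal at E8.75 than in Wt1-GFP cells. Of 15 genes of the Ret and bud tip list, 7 were set apart as higher (5.06% of all genes) and 0 as lower, with a median difference of 1.13. Ret was at 2.12 at E8.75 and was not well above background on either Wt1-GFP array (-6.12 and -4.92), at least 75.4-fold higher (limma difference 7.64, SE 0.59, adjusted p = 0.199). With an intensity trend the adjusted p of Ret was 0.037. With normexp correction, which here added the same offset to every signal and so narrows gaps between dim ones most, its difference was 4.04. Gfra1, the co-receptor that binds GDNF, was at 1.04 against -2.30 and -2.11. For Ret and Gfra1 the E8.75 level was above the rostral arrays of E9.5 and E10.5 and within 2-fold of the caudal and E11.5 arrays. Gdnf, the ligand, which belongs to the nephrogenic list, was at -1.41 at E8.75 and at -3.30 and -0.33 in Wt1-GFP cells, so the E8.75 cells lay between the mesoderm samples. It was at -3.40 or lower on every later duct array.

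Targets of Ret signalling were divided. Etv4, an ETS factor downstream of Ret, was at 4.73 against 1.3 and 2.58 and was set apart, with an adjusted p of 0.050 under the intensity trend. Its paralogue Etv5 was at 4.30 against 2.67 and 3.67, above both arrays but less than 2-fold from the caudal one. Spry1, which encodes an inhibitor of receptor tyrosine kinase signalling, was at 0.80 against 0.65 and 0.67, and Dusp6, an ERK phosphatase, at 5.12 against 4.03 and 5.26. Cxcr4, the receptor of the chemokine Cxcl12, was at 6.12 against 1.55 and 2.13, a difference of 4.29 (SE 0.63). Wnt11, a ligand of the bud tip, was at 0.02 against -1.35 and -1.72, and the protease gene Adamts18 at 0.30 against -2.83 and -6.27. Sox8, Sox9 and Myb, transcription factors of the tip, were less than 2-fold above the nearer Wt1-GFP array, and Ros1, a receptor tyrosine kinase, was not well above background on any of the 3 arrays.

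Genes of the duct trunk and collecting duct were mostly not in place, and the keratins went the other way. Of 17 listed genes, 3 were set apart as higher and 3 as lower (5.06% and 5.11% of all genes), with a median difference of -0.25. Wfdc2, a secreted protease inhibitor of the duct, was at 4.23 against 0.81 and -0.19, close to its later levels of 4.30 to 5.08. Clu, which encodes clusterin, was at 1.16 against -0.65 and -0.84. Aqp3, a water channel, was at -0.16 against -3.50 and -2.03, but its difference turned to -1.77 when the slide row was added to the fit. The 3 genes set apart as lower encode keratins of simple epithelia. Krt8 was at -1.23 against 1.03 and 0.84, Krt18 at 0.52 against 3.24 and 2.45, and Krt19 at -2.73 against 0.78 and 0.05. The Wt1-GFP mesoderm thus had 4.51-fold more Krt8 signal and 4.98-fold more Krt18 signal than the E8.75 cells, while Krt8 was between 1.05 and 3.72 and Krt18 between 2.39 and 4.77 in the later duct. Krt19 differed from these, since its later levels of -2.93 to -0.98 also lay below both Wt1-GFP arrays. Wnt9b, the ligand by which the duct acts on the nephron progenitors, was not well above background on any of the 3 arrays and lay between 1.40 and 3.77 later. Calb1, a calcium-binding protein of the collecting duct, was at -3.95 against -2.93 and -3.18 and lay between 0.40 and 4.66 later.

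Epithelial junction and polarity genes showed the widest gap between E8.75 and the later duct. Of 29 listed genes, 7 were set apart from the mesoderm as higher and 0 as lower (5.06% and 5.11% of all genes), with a median difference of 0.86. On the other hand 23 of the 29 had every later duct array at least 2-fold above E8.75, compared with 3.15% of all genes, and 19 of these 23 were not set apart from the mesoderm, a pair of properties that 1.72% of all genes had. This second rule was chosen after the values were seen. It held for 3 of the 12 duct transcription factors, 2 of the 15 Ret and tip genes and 6 of the 17 trunk genes.

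The epithelial genes already set apart came from different steps of the programme. Cldn6, a claudin of embryonic epithelia, was at 4.70 against 1.56 and 0.95 (limma difference 3.44, SE 0.57, adjusted p = 0.215), yet lay below its later range of 6.95 to 8.48. Grhl2, a grainyhead factor that promotes epithelial junction genes, was at 0.92 against -4.44 and -2.66, at least 18.8-fold higher, though its second, dimmer probe did not set the cells apart. Rab25, a small GTPase of the apical recycling route, was at -1.51 and not well above background in Wt1-GFP cells, at least 6.12-fold higher. Under the intensity trend the adjusted p was 0.040 for Rab25 and 0.050 for Grhl2. Marveld2, which encodes tricellulin, was at -1.23 with no Wt1-GFP array well above background, Mal, a membrane protein of apical transport, at -0.75 against -6.03 and -3.29, and Spint1, a membrane-bound protease inhibitor, at -0.04 against -3.11 and -1.64, while the other probe of Spint1 was just short of 2-fold. Ovol1, a zinc-finger repressor, was closest to the 2-fold limit, at -2.34 against -3.53 and -3.37.

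The adhesion molecules that define an epithelium did not separate the cells. Cdh1 (E-cadherin), Cldn3, Cldn8 and Marveld3 were not well above background on any of the 3 arrays, and all 4 were measured on each of the 5 later arrays. Their lowest later levels were -2.39 for Cdh1, -2.30 for Cldn3, -1.08 for Cldn8 and 0.16 for Marveld3. Epcam, an adhesion molecule of epithelia, was at -0.84 against -2.93 and -1.13, inside 2-fold of the caudal mesoderm, and was between 2.62 and 4.85 in the later duct. Cldn4 was at -2.59 against -2.25 and -2.91 and between 0.22 and 3.44 later, and Cldn7 at 0.60 against 0.54 and 0.31 and between 2.09 and 3.83 later. Esrp1, an RNA-binding protein that sets epithelial splicing, was at -2.76 against -2.59 and -2.54 on its brighter probe, with 2.54 to 4.09 later, but its dimmer probe set the E8.75 cells apart as higher. The same held for Crb3, a polarity protein, at -3.21 on the brighter probe with neither Wt1-GFP array well above background. St14, a membrane protease, and Kdf1 were well above background at E8.75 and not in Wt1-GFP cells, but at -3.37 and -4.41 they were not 2-fold above the dimmest level that could be measured there. Ovol2 is not read, since its probe spanned only 0.51 on the log2 scale over all 8 arrays.

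**Figure D3:**
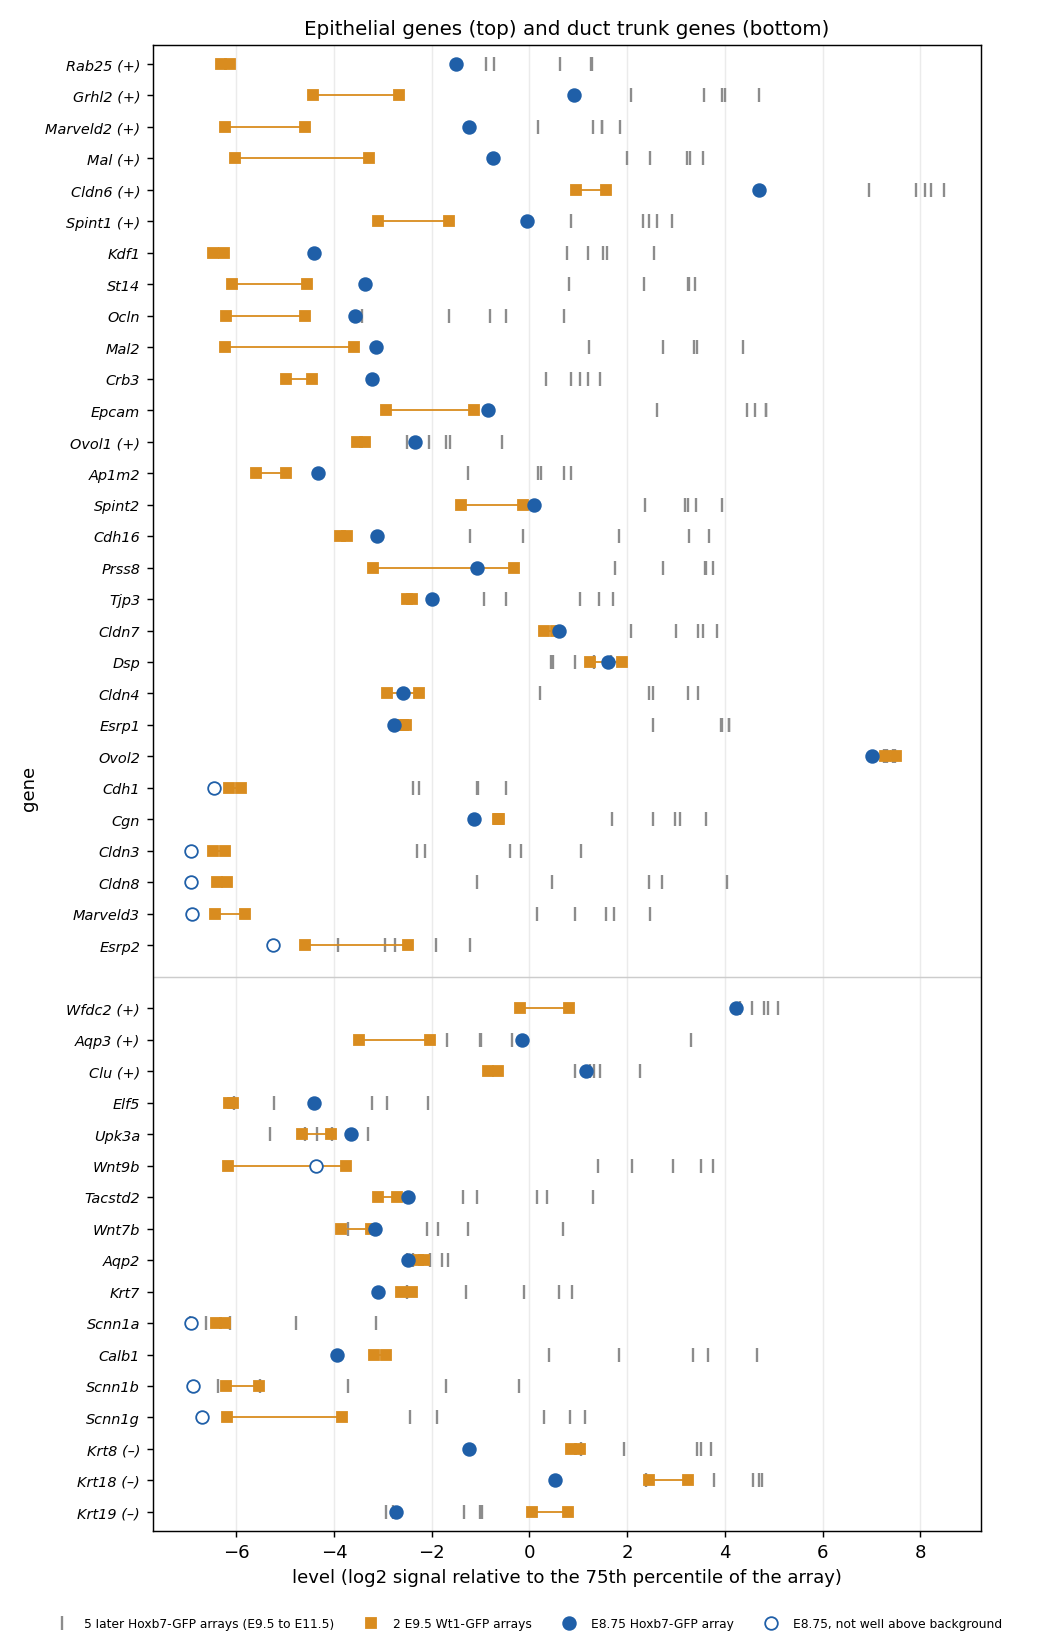
Level of each epithelial junction and polarity gene (top) and each duct trunk gene (bottom) on the E8.75 Hoxb7-GFP array (circles, open where not well above background), the 2 Wt1-GFP arrays (squares) and the 5 later Hoxb7-GFP arrays (ticks), on the log2 scale relative to the 75th percentile. From Kdf1 downward most circles lie next to the squares while the ticks lie far to the right, as for Epcam at -0.84 against 2.62 to 4.85 later, and the circles of Krt8, Krt18 and Krt19 lie left of the squares.

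Promoter sequences were compared between members that were set apart as higher and members that were not but were at least 2-fold above E8.75 on every later array. RefSeq promoters of build GRCm38.p6 were matched by symbol for 50 of the 73 genes in the duct, Ret, trunk and epithelial lists, and the 250 bases before each transcription start were searched on both strands. Shown are 2 genes of the second kind, Epcam and Wnt9b, and 2 that were set apart, Lhx1 and Sim1, with every CAGGTG or its complement CACCTG in capitals. They were chosen after their values were seen and do not stand for their groups, whose counts are given below. CAGGTG is the E-box that Snail and Zeb factors bind. The windows are chr17:87635729-87635978 on the plus strand for Epcam, chr11:103749822-103750071 on the minus strand for Wnt9b, chr11:84525535-84525784 on the minus strand for Lhx1 and chr10:50895401-50895650 on the plus strand for Sim1, each ending at the base before the start.
Epcam: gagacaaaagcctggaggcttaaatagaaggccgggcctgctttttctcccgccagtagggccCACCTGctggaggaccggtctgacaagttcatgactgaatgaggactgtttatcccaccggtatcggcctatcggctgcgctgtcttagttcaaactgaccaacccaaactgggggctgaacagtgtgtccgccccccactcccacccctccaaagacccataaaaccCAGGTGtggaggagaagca
Wnt9b: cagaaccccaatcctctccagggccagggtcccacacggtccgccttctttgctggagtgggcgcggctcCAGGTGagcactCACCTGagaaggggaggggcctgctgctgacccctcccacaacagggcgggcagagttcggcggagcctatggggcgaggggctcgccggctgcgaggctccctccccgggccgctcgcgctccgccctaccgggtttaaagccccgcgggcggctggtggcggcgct
Lhx1: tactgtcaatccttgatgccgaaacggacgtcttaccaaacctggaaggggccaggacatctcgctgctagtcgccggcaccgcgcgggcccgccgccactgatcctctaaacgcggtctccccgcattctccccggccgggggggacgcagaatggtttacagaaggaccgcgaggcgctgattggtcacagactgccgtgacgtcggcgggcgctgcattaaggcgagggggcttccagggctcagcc
Sim1: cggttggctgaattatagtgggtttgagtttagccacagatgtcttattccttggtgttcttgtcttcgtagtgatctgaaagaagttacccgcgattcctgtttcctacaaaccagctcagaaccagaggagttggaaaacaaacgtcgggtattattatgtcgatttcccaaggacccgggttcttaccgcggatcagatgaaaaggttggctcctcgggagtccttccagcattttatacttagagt
Epcam holds the E-box 187 and 19 bases before its start, and Wnt9b holds it 180 and 168 bases before, whereas these letters do not occur in the windows of Lhx1 and Sim1.

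Among the 17 matched members that were not set apart as higher and were at least 2-fold above E8.75 on every later array, 12 had a promoter with this E-box. These 12 were Ap1m2, Cldn4, Cldn7, Crb3, Epcam, Krt8, Krt18, Scnn1g, Spint2, Tfcp2l1, Tjp3 and Wnt9b. Of the 19 matched members that were set apart as higher it was found in 5, namely Aqp3, Cldn6, Pax2, Rab25 and Wfdc2. Over all 32851 RefSeq promoters of the same length 17.2% held it, and over the 63 promoters of the 50 members 36.5% did. A gene with several promoters counts once if any of them matched, so counts of genes and shares of promoters are not directly comparable. The members set apart and those not set apart also came unequally from the lists. Whether this bears on the counts was not tested. The grainyhead motif AACCNGTT was found in 6.35% of member promoters and 1.79% of all. It occurred in 2 of the 19 members set apart as higher (Pax2 and Rab25) and in 1 of the 17 not set apart as higher (Cgn). The AP-2 motif GCCNNNGGC was found in 22.2% and 13.7% of promoters, and in 5 of the 19 and 3 of the 17 members. The other 3 motifs searched were AGATAA for GATA factors (6.35% and 9.99%), CCGGAAG for ETS factors (6.35% and 6.91%) and CTTTGAT for TCF/LEF factors (4.76% and 3.21%). Of the 19 and the 17 members, the GATA motif was found in 0 and 2, ETS in 1 and 2, and TCF/LEF in 2 and 0. All motifs were searched on both strands, some sites of different motifs can overlap, and a match describes the letters and shows no binding.

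The mesenchymal side was likewise split. Of 18 genes of stroma and mesenchyme, 0 were set apart as higher and 11 as lower (5.11% of all genes), with a median difference of -2.16. Snai2, a repressor of epithelial genes, was at -2.45 at E8.75 and at 3.56 and 2.83 in Wt1-GFP cells, 50-fold lower (limma difference -5.64, SE 0.48, adjusted p = 0.199, and 0.040 under the intensity trend). Its paralogue Snai1 was at -3.94 against -1.75 and -1.61. Zeb1 and Zeb2, repressors of the same kind, were not set apart. Zeb1 was at 3.43 against 3.16 and 3.27, and from -2.08 to 2.38 on the later duct arrays. Zeb2 was at 1.32 against 1.84 and 0.85, and between -3.47 and -0.07 later. On these probes both genes were near the mesoderm levels at E8.75 and lower on every later array. Another of the 3 probes of Zeb2 set the E8.75 cells apart as lower, at -4.18 against a Wt1-GFP mean of -2.25. The remaining probe of Zeb2 did not set them apart.

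Matrix and filament genes followed the same division. Col3a1, a fibrillar collagen, was at -2.41 against 4.44 and 3.57, 85.2-fold lower, and Foxd1, a factor of the renal stroma, at -2.15 against 3.07 and 2.85. Pdgfra, a growth factor receptor of mesenchyme, was at -1.21 against 2.65 and 1.76. Vim, which encodes vimentin, was in contrast at 5.08 against 4.14 and 4.22, and Fn1 (fibronectin) at 6.33 against 5.62 and 5.35. Neither was set apart, and both were above every later duct array, which spanned 0.13 to 3.33 for Vim and 4.10 to 5.49 for Fn1. Twist1 was at 0.24 against 2.27 and 2.19, but its difference turned to 0.29 when the slide row was added to the fit.

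Wt1, the gene whose reporter marked the mesoderm, was the gene with the largest gap. It was not well above background at E8.75 and was at 4.08 and 4.01 in Wt1-GFP cells, at least 674-fold lower (limma difference -10.97, SE 1.33, adjusted p = 0.2). Wt1 thus followed the label of the Wt1-GFP sort, whereas Hoxb7, as given above, did not separate the groups. Of 18 nephrogenic genes, 1 was set apart as higher and 9 as lower (5.06% and 5.11% of all genes), with a median difference of -1.42. Osr1, an early factor of the intermediate mesoderm, was at -1.05 against 1.40 and 2.68, and Meis1 was at 1.63 against 3.83 and 3.76. Six2, a factor of nephron progenitors, was not well above background against -0.75 and 0.61. Another of its 3 probes also set the cells apart as lower, and the remaining probe did not. Six4 was less than 2-fold from the mesoderm, at 1.23 against 0.35 and 1.14, and lay between -0.45 and 0.21 on the later duct arrays. Sall1, a zinc-finger factor, was set apart as higher at 4.50 against 2.45 and 3.45, but its difference turned to -1.01 with the slide row in the fit. Eya1 is not read, since its probe spanned 0.38 over all arrays.

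**Figure D4:**
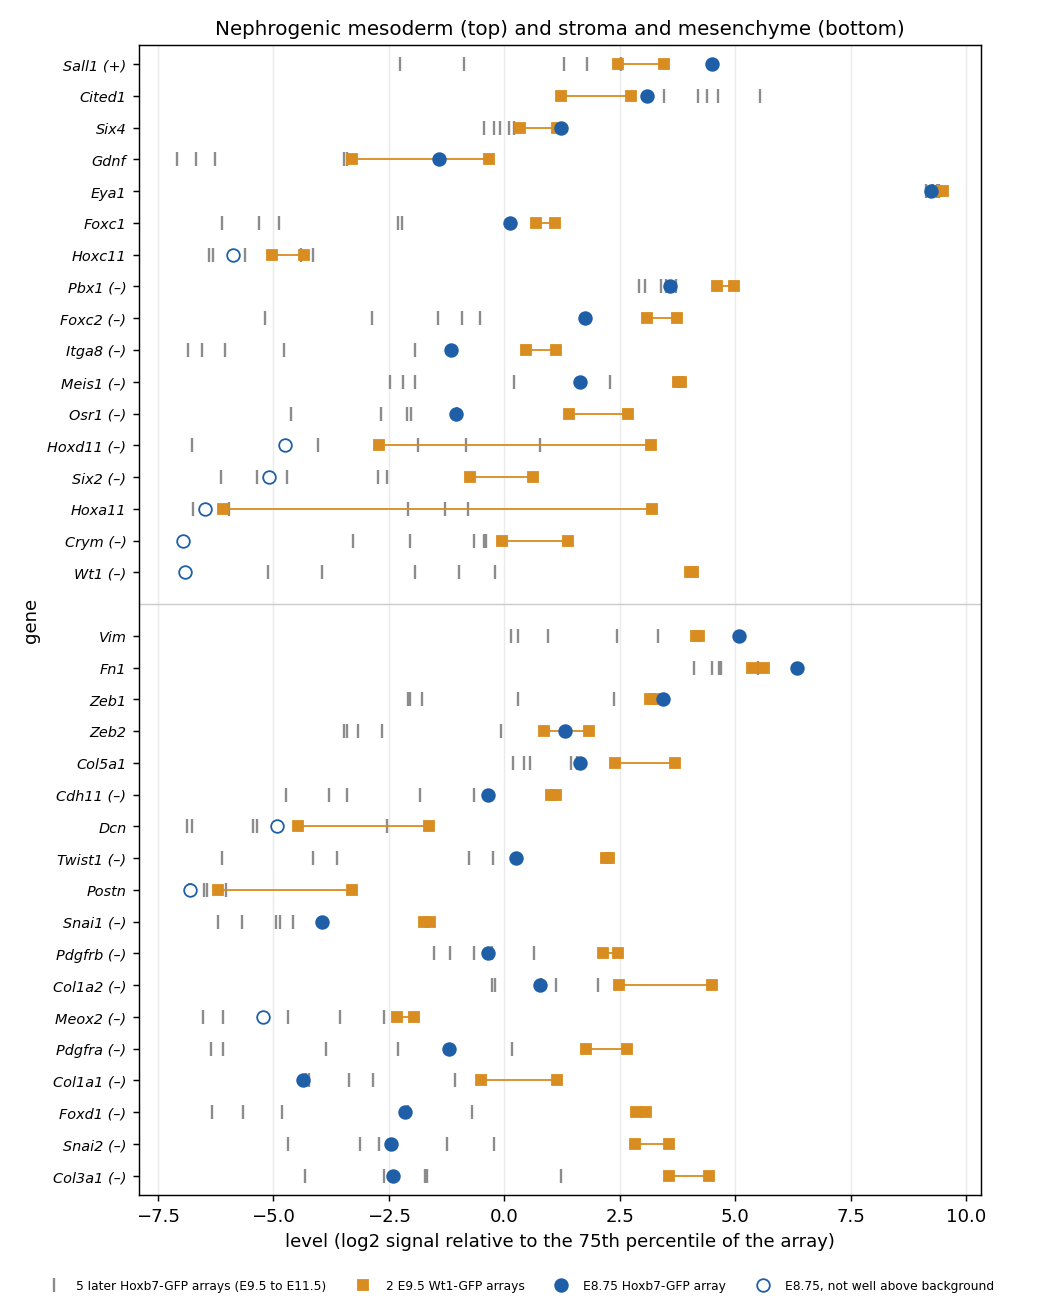
Levels of nephrogenic genes (top) and of genes of stroma and mesenchyme (bottom) on the E8.75 Hoxb7-GFP array (circles, open where not well above background), the 2 Wt1-GFP arrays (squares) and the 5 later Hoxb7-GFP arrays (ticks), on the log2 scale relative to the 75th percentile. Wt1, Six2, Snai2 and Col3a1 show the circle far to the left of the squares, while Zeb1, Zeb2, Vim and Fn1 show it beside or right of the squares with all ticks to its left.

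Genes of the coelomic epithelium and gonadal ridge were the most widely lower, with 8 of 12 measured members set apart as lower (5.11% of all genes), 0 as higher, and a median difference of -3.85. Tcf21, a factor of coelomic mesenchyme, was at -2.86 against 1.6 and 1.87, and Ptx3, a secreted pentraxin, at -4.35 against 3.81 and 0.84, 102-fold lower. Gata4 and Lhx9, factors of the gonadal ridge, were high on the rostral Wt1-GFP array alone, at 3.1 and 1.97 against -3.08 and -3.92 caudally, so they did not meet the rule. Lateral plate genes gave 2 members higher and 7 lower of 15 (5.06% and 5.11% of all genes). The higher ones were Msx1, a homeobox factor, at 0.57 against -2.04 and -2.80, and Fgf10, which encodes a growth factor, at 2.40 against 0.97 and 1.28. Among the lower ones Hand2, a factor of heart and limb, was not well above background against -1.80 and -2.48, and Foxf1, a forkhead factor, was at -2.40 against -0.23 and 0.15. The others were Prrx1, Isl1, Msx2, Bmp4 and Gata6, and the dimmer probe of Bmp4 did not set the cells apart.

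Hox genes are given by paralogue group, against 5.06% of all genes set apart as higher and 5.11% as lower. In groups 1 to 5, 1 of 15 was higher and 1 lower, and the median difference was 0.20. In groups 6 to 9, 5 of 12 were lower and 1 higher, and in groups 10 to 13, 4 of 11 were lower and 0 higher, with median differences of -0.94 and -2.88. Hoxb6 was the higher gene, at 3.87 against 1.75 and 2.32, a level that the later duct held between 3.06 and 3.73. Hoxd9 was at 1.89 against 4.72 and 5.64 and lay between 4.34 and 6.13 later. Hoxc9 was at -0.89 against 2.79 and 2.97. For Hoxa10, Hoxc10 and Hoxd10 the caudal mesoderm was the brighter of the Wt1-GFP arrays, and the E8.75 cells lay below the rostral one too. Hoxc10, for example, was at 1.28 against 3.1 and 6.17.

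Genes of the primitive streak and tail bud, the region from which trunk mesoderm emerges, gave 5 of 16 set apart as higher and 0 as lower (5.06% of all genes). Cdx1, Cdx2 and Cdx4, homeobox factors of the posterior axis, were at 0.07, 0.56 and -0.50. The rostral mesoderm was not well above background for these 3 genes, and the caudal mesoderm was at -3.07, -2.38 and -1.87. T (brachyury) was at -2.94, above the floor of both Wt1-GFP arrays. Lin28b, an RNA-binding protein of early embryonic cells, was at 3.03 against 1.41 and 1.74, and its other probe did not set the cells apart. The 16 cell cycle genes gave 0 set apart either way, with a median difference of 0.16.

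Signalling genes are given by pathway, again against 5.06% of all genes higher and 5.11% lower, and in the shortest lists a count of 2 rests on few genes. In the retinoic acid list 3 of 16 were higher and 6 lower. Among the enzymes that make retinoic acid, Aldh1a3 was at 2.14 against -4.51 and -4.53, at least 76.9-fold higher, while Aldh1a2, the enzyme of early mesoderm, was at 1.3 against 3.82 and 3.75. Aldh1a3 on the later duct arrays ran from -2.31 to 4.39, high on the caudal and E11.5 arrays. Cyp26a1, which degrades retinoic acid, was at 2.17 against -5.52 and -3.15, at least 53.0-fold higher. Adh1, an alcohol dehydrogenase, was at -4.30 against 3.42 and 1.22, and the receptor gene Rarb at -1.21 against 0.62 and 0.95. Another of the 3 probes of Rarb also set the cells apart as lower, and the remaining probe did not.

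Of 12 Wnt response genes 5 were higher and 0 lower. Axin2, a feedback target of the pathway, was at 0.96 against -0.86 and -0.64 on its brighter probe, while its other probe did not set the cells apart. Sp5, another target, was at 0.86 against -3.46 and -2.73. Lgr5, a receptor for R-spondins, was at 1.91 against -3.47 and -6.38 on its brighter probe, and its dimmer probe did not set the cells apart. In the Notch list 6 of 15 were higher and 1 lower. Jag1, a ligand, was at 3.67 against 0.65 and 0.87 (limma difference 2.91, SE 0.31, and adjusted p = 0.040 under the intensity trend), Notch1 was at 0.82 against -1.41 and -2.28, and Notch3 was the lower gene, at 0.09 against 1.55 and 1.22. Of 9 BMP response genes 2 were higher and 2 lower. Id1 and Id3, targets of BMP signalling, were the lower ones, at -0.40 against 1.22 and 1.21 and at 2.04 against 3.99 and 3.41. The Hedgehog list gave 0 higher and 2 lower of 8, Gli1 at -2.96 against -0.51 and 0.74 and Gli2 at -1.48 against 0.22 and 0.09.

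Markers of other cell types moved with the comparison, endothelium most of all. Of 20 endothelial genes, 18 were set apart as higher and 0 as lower (5.06% and 5.11% of all genes), with a median difference of 4.56. All 20 were well above background at E8.75, and 9 of the 20 were on both Wt1-GFP arrays. The summed endothelial signal, in multiples of the array's 75th percentile, was 83.4 at E8.75, 11.8 and 17.7 in the rostral and caudal duct of E9.5, and 9.5 and 8.76 in rostral and caudal Wt1-GFP cells. Kdr itself was at 4.12 against 2.10 and 2.10 (limma difference 2.02, SE 0.25). Cdh5 (VE-cadherin) was at 2.61 and not well above background on either Wt1-GFP array, at least 106-fold higher, and lay between -3.27 and -1.23 on the later duct arrays. Pecam1 was at 0.75 against -3.54 and -4.07. Etv2 and Erg were the endothelial genes not set apart, Etv2 at -0.26 against -1.33 and -0.28 and Erg at -3.85 with neither Wt1-GFP array well above background. The dimmer probe of Erg did set the cells apart as higher. Among the 10 genes with the largest gap upward, which include Ret, the genes Lyve1, Cdh5, Cd34, Cd93 and Stab2 are known from endothelium. Lyve1, a hyaluronan receptor, was at 3.24 at E8.75 and not well above background on any of the other 7 arrays.

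Endoderm and yolk sac genes were also higher, 10 of 16 set apart (5.06% of all genes), with a median difference of 3.02. Their summed signal was 11.46 at E8.75, 0.90 and 3.09 in the duct of E9.5, and 1.04 and 1.31 in the mesoderm. Afp and Apoa1, made by the yolk sac endoderm, were at 0.44 and 0.11 and were well above background on the E8.75 array alone. Hhex, a factor of both endoderm and endothelium, was at 1.03, at least 32.7-fold higher. Sox17, also set apart as higher, is on the endothelial list too and is counted in both. Foxa3, Hnf4a and Pdx1 were not set apart, and Foxa3 and Hnf4a were not well above background at E8.75. Blood genes, in contrast, gave 0 higher and 1 lower of 12, with Hbb-y, an embryonic globin, at -0.57 against 2.48 and 1.82. The remaining lists gave few members, against the same shares of all genes. Neural genes gave 2 higher and 2 lower of 17, neural crest genes 2 and 1 of 8, surface ectoderm 1 and 0 of 10, somite 0 and 1 of 9, heart 0 and 2 of 8, and germ cells 1 and 0 of 7. Tfap2a is on the neural crest list too, where Sox10, the defining marker, was not set apart at -3.85 against -2.26 and -4.59. In bulk RNA of sorted cells, fewer cells of a type and less RNA per cell cannot be told apart, and the part that endothelial and endoderm cells had in the values of Cxcr4, Mecom, Notch1, Jag1, Cyp26a1 and the other genes above was not tested.

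**Figure D5:**
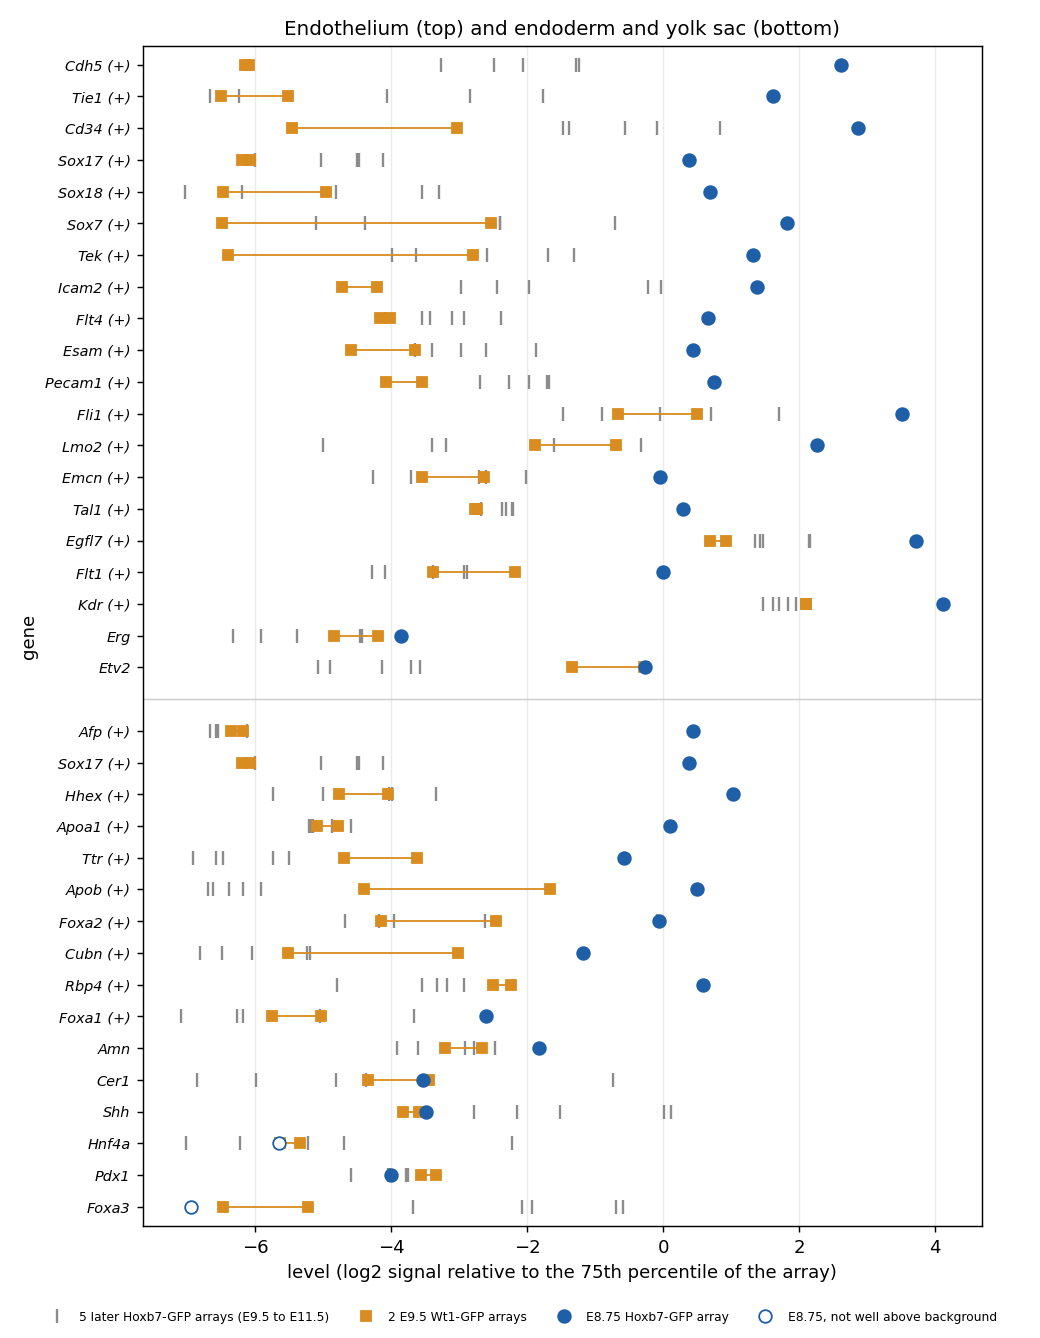
Level of each endothelial gene (top) and each endoderm and yolk sac gene (bottom) on the E8.75 Hoxb7-GFP array (circles, open where not well above background), the 2 Wt1-GFP arrays (squares) and the 5 later Hoxb7-GFP arrays (ticks), on the log2 scale relative to the 75th percentile. The E8.75 circle lies right of all squares and ticks for most endothelial genes, as for Cdh5 at 2.61, and for Afp and Apoa1.

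Genes outside the lists with the largest gap upward were Ctla2a, Gpr182 and Fev, beside Lyve1, Cd93 and Stab2, which are named above. Ctla2a was at 3.88 against -5.57 and -6.30, at least 256-fold higher. Gpr182, a receptor known from endothelium, was at 2.68 against -3.65 and -4.18, at least 96.9-fold higher. Fev, an ETS factor known from serotonergic neurons, was at 3.62 against -2.34 and -2.65, 69.2-fold higher. In the later duct Fev was at -0.02 and -1.26 on the rostral arrays of E9.5 and E10.5. On the caudal arrays of these stages it was at 2.59 and 1.31, and at E11.5 at 2.53. The largest gaps downward beside Wt1 and Col3a1 were those of S1pr3, a sphingosine phosphate receptor (-4.41 against 4.89 and 3.72, 422-fold lower), Alx1, a homeobox factor (not well above background against 2.36 and 1.75, at least 169-fold lower), Foxd2, Tgfbi, Gfra3, Ppp1r14a, Actc1 and Ddr2. For the last 6 the bounds ran from 75.6-fold to 135-fold lower.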

How the data were processed

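The arrays were Agilent 1-colour arrays, 8 on 1 slide with 1 scan. The authors' intensity values are background-subtracted processed signals from Agilent Feature Extraction 10.7.3.1, per the file headers. The deposited matrix of values holds log2 values centred by probe and followed the levels used here at r = 0.9999, so it served as an alternative. Per the labels, RNA was amplified with the NuGEN WT-Ovation Pico kit. Outlier spots were left out and repeated spots averaged, which left 55663 probes, of which 0 were saturated. Median local background was 25 to 31, and the 75th percentile of the signal 242.9 to 316.7, depending on the array. Precision is limited by how few arrays there are. Names came from RefSeq accessions (26755), symbols (3817) or their own names (25091).

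The test took each gene that cleared background on 1 or more of the 8 arrays, represented by its probe with the highest mean. limma 3.58.1 in R 4.3.3 (files were read with version 1.17.8 of the data.table package) was fitted to all 8 arrays with 5 group terms and a position term (0.5 rostral, -0.5 caudal, 0 undivided), which left 2 residual degrees of freedom. The rule of size needed a distance of 1 on the log2 scale. The E8.75 array lay in slide row 1 and both Wt1-GFP arrays in slide row 2, and no row held both. Of 82 listed genes with several measured probes, 26 had probes that differed in being set apart, 0 in opposite directions. The scripts were tested on simulated data.

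The members and the 27 gene lists (359 of 368 names measured) were chosen with earlier results of these data known. Named were the duct, Ret and trunk genes, up to 4 members of each other list that were set apart farthest (else the 2 brightest), and the 10 genes farthest apart in each direction. Other epithelial, mesenchymal, nephrogenic, Hox and marker genes, the motifs and the printed promoters were chosen after their values were seen. Some members are counted in their lists but not reported here by name.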

Additional observations from a re-analysis of the deposited data

How the results depend on the processing

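No paired analysis was possible because the E8.75 group has 1 array and shares fewer than 2 replicate numbers with the Wt1-GFP group. Genes past the adjusted p of 0.05 numbered 46 higher and 50 lower with the intensity trend and 107 and 35 with normexp correction, and 0 in limma under all other settings run, including each of the 7 arrays other than E8.75 left out in turn. Leaving out the rostral or the caudal duct array of one stage (E9.5 or E10.5) gave the same fit, since the array left alone then has no residual of its own. The set-apart counts were 741 higher and 504 lower with normexp, 922 higher when all 3 arrays had to be well above background, and 462 and 442 at a distance of 2. With 1 Wt1-GFP array left out they were 2169 to 2434 higher and 2682 to 3312 lower, fewer arrays having to be cleared.

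By list, normexp gave 3 lower for lateral plate, 3 higher for primitive streak, 0 higher for anterior Hox, 3 lower for middle Hox, 2 lower for posterior Hox, 3 higher for Notch, 1 higher for BMP, 1 lower for Hedgehog, 1 higher for neural, and 0 higher for surface ectoderm and germ cells. A distance of 2 gave 1 higher for duct trunk, 2 lower for lateral plate, 2 higher for primitive streak, 0 higher for anterior Hox, 3 lower for middle Hox, 2 lower for posterior Hox, 2 lower for retinoic acid, 2 higher for Notch, 0 higher for BMP, 1 lower for Hedgehog, 1 higher for neural, 1 higher for neural crest, and 0 higher for surface ectoderm and germ cells. With all 3 arrays well above background there were 4 higher for Ret and tip, 3 higher for epithelial, 5 lower for nephrogenic, 5 lower for coelomic, 1 higher for primitive streak, 9 higher for endothelium, 1 higher for endoderm, 1 higher for neural, 1 higher for neural crest, 0 higher for surface ectoderm, 0 lower for somite, 1 lower for heart and 0 higher for germ cells, since this filter removes genes not well above background in the mesoderm or at E8.75. The anterior Hox count was 2 with the deposited matrix, 0 with quantile normalization and 4 against the Wt1-GFP mean, where neural genes numbered 5. The median over probes gave 1 neural and 2 surface ectoderm genes. With a Wt1-GFP array left out the counts ran from 2 to 4 for anterior Hox (higher), 4 to 7 for posterior Hox (lower), 2 to 2 for blood (lower), 2 to 6 for neural (higher), 1 to 2 for somite (lower) and 2 to 6 for heart (lower). The other list counts stayed within 1.5 times, among them those of the duct transcription factors under every setting run.

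Genes with every later duct array above E8.75 numbered 330 with normexp and 294 at a distance of 2, with 1 Ret and tip gene in each case, and the epithelial count stayed within 1.5 times of 23. With the slide row as a block, and also with the intensity trend added, the difference was -1.77 for Aqp3, 0.29 for Twist1 and -1.01 for Sall1, the direction opposite to the main one, and the cause was not tested. Single genes gave 2374 values within the spread of the Wt1-GFP arrays, 543 outside it and 6 reversed. Setting dim values to the floor moved the median of all genes to -0.13. A difference that rests on an array below background is a bound only.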
